A study of Mus musculus with 5 samples.

Results

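Collagens XII, XIV and XVI, dermatopontin, the adhesion protein encoded by Abi3bp, and tenascin X coat or bridge collagen fibrils, and their genes (Col12a1, Col14a1, Col16a1, Dpt, Abi3bp and Tnxb) were followed in the mouse knee joint with and without epiphycan and biglycan. The genes were chosen for what their proteins do at the fibril surface, except that Dpt and Abi3bp were picked after their values in these arrays had been seen. In the platform annotation 8 of 22690 probe sets carried 1 of the 6 symbols: a pair each for Col14a1 and Abi3bp, and 1 for each of the others. All 6 genes were present, of 12393 genes with a probe set.

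Wildtype male mice, 3 months old and of the C57/Bl6:129 hybrid strain, were compared with male mice of the same age and strain that were Epiphycan and Biglycan double-null, lacking both of these small leucine-rich proteoglycans. RNA came from whole tibio-femoral joints, pooled from 3 mice (6 joints) per array, so each replicate is a pool and the spread between single animals is averaged away. There were 2 wildtype and 3 double-null pools. The sources used here do not say how the null alleles were made or in which cells they act. Values came in 2 tables, here called array types: type A held wildtype pool 2 and double-null pool 3, and type B held wildtype pool 1 and double-null pools 1 and 2.

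A collagen fibril in tendon, ligament, bone or cartilage is built from fibril-forming collagens, and its surface carries further proteins that set its width and tie it to its neighbours. Collagens XII, XIV and XVI belong to the FACIT class, the fibril-associated collagens with interrupted triple helices, which lie on the fibril and project non-collagenous domains away from it. Dermatopontin is a small tyrosine-rich matrix protein that binds decorin and speeds fibril formation in the test tube. Tenascin X is a large glycoprotein that binds fibrils in skin, muscle sheaths and tendon, and its loss causes a form of Ehlers-Danlos syndrome. Abi3bp encodes a secreted matrix protein with fibronectin type III domains. Biglycan and epiphycan belong to the proteoglycan family whose members also bind fibrils.

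The promoters of the 3 members held in the RefSeq promoter table (GRCm38.p6), Dpt, Col16a1 and Tnxb, differed in base composition and in short motifs. The pair printed here is that of Dpt, whose signals lay apart between the genotypes, and Col16a1, whose signals did not. Each runs 5′ to 3′ from 250 bases before to 30 bases after the annotated start, with matches on either strand in capitals. The motifs searched were the TATA box letters TATAAA, the CCAAT box, the Sp1-type box GGGCGG and the AP-1 type site TGAGTCA. The Dpt window is chr1:164796413-164796692 and the Col16a1 window chr4:130047590-130047869, both on the plus strand.
Dpt: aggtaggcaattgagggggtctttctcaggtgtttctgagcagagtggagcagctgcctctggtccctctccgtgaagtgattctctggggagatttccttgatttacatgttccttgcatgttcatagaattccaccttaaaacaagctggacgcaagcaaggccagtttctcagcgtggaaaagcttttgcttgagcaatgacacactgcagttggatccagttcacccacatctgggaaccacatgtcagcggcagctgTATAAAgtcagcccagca
Col16a1: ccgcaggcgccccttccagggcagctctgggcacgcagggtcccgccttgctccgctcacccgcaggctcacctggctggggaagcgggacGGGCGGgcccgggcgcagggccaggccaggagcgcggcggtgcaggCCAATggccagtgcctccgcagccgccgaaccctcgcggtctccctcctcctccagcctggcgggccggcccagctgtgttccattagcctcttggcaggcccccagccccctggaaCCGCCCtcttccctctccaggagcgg
Dpt had a GC content of 49.6% and 4 CG dinucleotides, and Col16a1 75.0% and 23, against medians of 52.5% and 6 over the 32851 windows of this length in the table. The only match in Dpt was TATAAA, which is found in 13.1% of windows and lies 13 to 18 bases after the annotated start, where a TATA box would not usually be placed. Col16a1 held GGGCGG in 2 places (34.7% of windows hold it) and CCAAT in 1 (36.1%), and Tnxb held TGAGTCA (4.9%) in 1. A match is a string of letters, and these arrays hold no measurement of binding at it.

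Deposited values were MAS5 signal intensities on a linear scale, with a 2% trimmed mean of 250.1 on each array. Bgn read 2003 to 3413 in the wildtype and 204 to 224 in the double-null pools on its least reduced probe set, and Epyc read 78.8 and 91.2 against 1.29 to 10.8, so each array matched its label, though the sources used here do not say whether these probe sets lie in the deleted parts. No member lies on the chromosome of Epyc or of Bgn in the reference gene table. The other genes named here were not looked up in this way, so linkage to the null loci is open for them. Most markers of the joint's tissues read above the 27 Bacillus spots, control probe sets without a mouse target. On every array 7 of 8 cartilage, 6 of 6 bone and 8 of 8 skeletal muscle genes lay above the highest spot. So did 7413 of the 7436 genes tested, so these counts do not single out the joint's tissues. In the fit over all arrays 9 of 7436 genes passed limma's adjusted p of 0.05, 6 of them higher and 3 of them lower without the proteoglycans, or 2 and 3 with the scaling as deposited and 3 and 3 with median centring. Precision is limited by the number of arrays: an exact permutation test of 2 pools against 3 could not go below p = 0.1 for a single gene.

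Members' signals are plotted for every pool, each probe set on its own axis, because signals of different probe sets do not compare as levels of their genes.

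**Figure D1:**
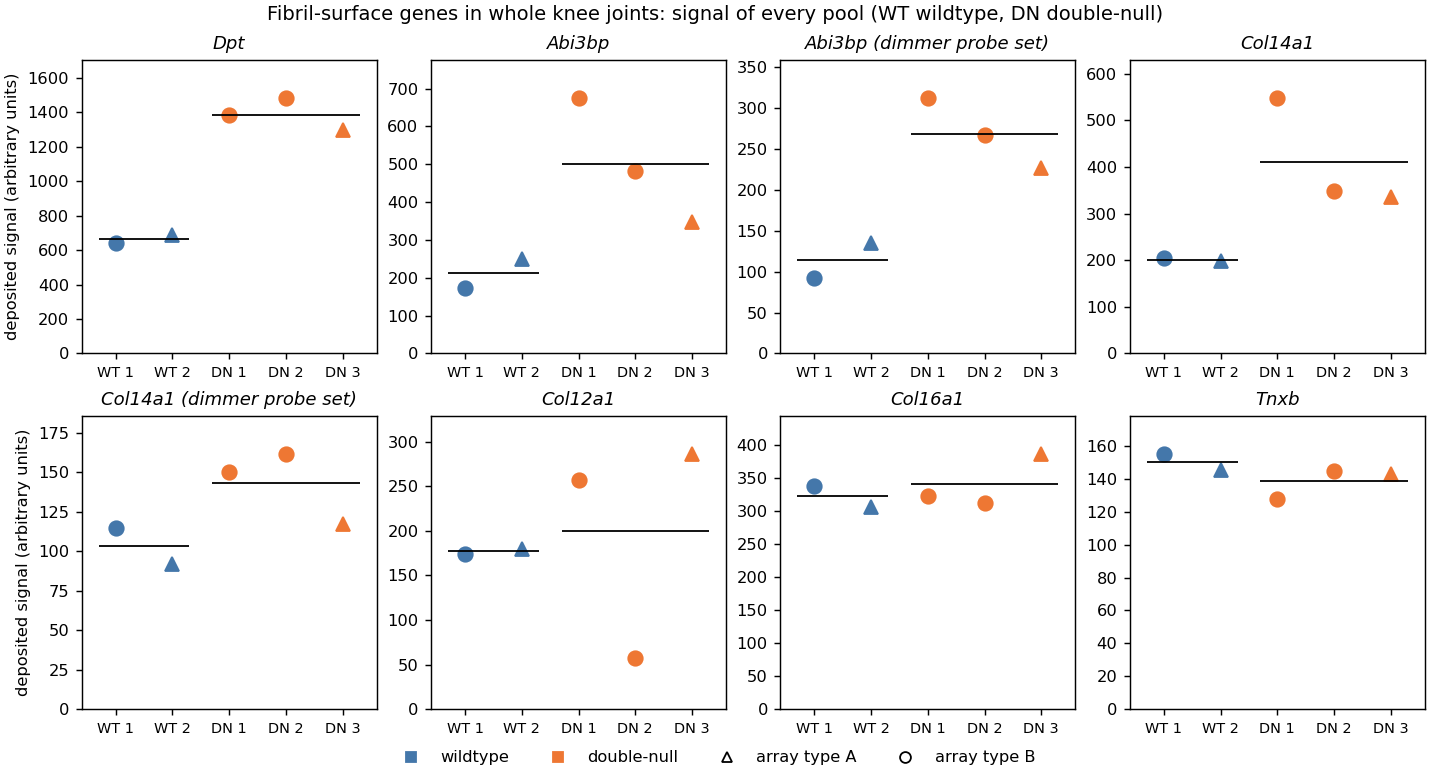
Deposited signal (arbitrary units, axes from 0) of the 8 probe sets in each pool, with wildtype pools (WT) in blue, double-null pools (DN) in orange, array types as triangles (A) and circles (B), and lines at the group means. Dpt, Abi3bp and Col14a1 lie higher in all 3 double-null pools, Col12a1 falls to 57.6 in double-null pool 2 alone, and Col16a1 and Tnxb stay between 307 and 386 and between 127.98 and 155.

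Among the FACIT collagens, Col14a1 lay higher in each double-null pool without passing the test over all genes, Col12a1 differed more among the double-null pools than between the genotypes, and Col16a1 was nearly flat. These 3 genes and Tnxb were not picked by their values. Of these 4, 0 passed limma's threshold over all genes (0.121% of all genes did), 1 had an unadjusted p under 0.05 (6.17% of all genes did), and 1 had all 3 double-null pools above the higher wildtype pool (9.45% of all genes did). Their median log2 fold change was 0.084, against -0.011 over all genes tested. Fold changes compare double-null with wildtype pools as log2(signal + 32) after quantile normalisation, with array type as a term.

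Col14a1 encodes the chain of collagen XIV, found on fibrils of tendon, skin and other dense connective tissue and linked to the control of fibril growth. Its brighter probe set read 204 and 199 in wildtype pools 1 and 2, while the double-null pools 1 to 3 read 548, 349 and 337. The wildtype pools nearly coincided, and the lowest double-null pool stood well above them. The group means were 202 ± 3.55 (SD, n = 2) and 411 ± 118 (n = 3), a log2 fold change of 0.87 ± 0.21 (SE), or 1.82-fold. It missed the threshold (limma, unadjusted p = 0.0013, adjusted p = 0.23 over 7436 genes). Without double-null pool 2 the change was 0.99 and passed (limma adjusted p = 0.0032), in a setting where 50 genes passed in place of 9. In the other 13 alternatives it did not, with changes from 0.61 to 1.02.

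The second Col14a1 probe set was dimmer and moved less. It read 115 and 91.8 in the wildtype pools and 150, 162 and 118 in the double-null pools. The groups did not overlap (9.24% of 22626 probe sets lay apart in this direction), but double-null pool 3 lay barely above wildtype pool 1. Its log2 fold change was 0.35 ± 0.20, less than that of the brighter probe set, and it did not pass (limma adjusted p = 0.92 over all probe sets, of which 0.0265% passed). Averaging both probe sets gave 0.61 for the gene.

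Col12a1 encodes the chain of collagen XII, which coats fibrils of tendon, ligament and the layers around bone and muscle. Its probe set read 174 and 180 in the wildtype pools and 257, 57.6 and 286 in double-null pools 1 to 3. Double-null pools 1 and 3 lay above both wildtype pools and double-null pool 2 lay far below them, so the groups overlapped. In double-null pool 2 the signal was under the highest Bacillus control on that array, 63.5, and it was above the highest control on the other 4 arrays. The means were 177 ± 4.58 (SD, n = 2) and 200 ± 124 (n = 3), with a log2 fold change of 0.070 ± 0.40 (SE) and a 95% interval from -0.80 to 0.94, or 0.575-fold to 1.92-fold (limma adjusted p = 0.99). The value was 0.57 with double-null pool 2 left out (limma adjusted p = 0.47) and -0.30 with double-null pool 1 left out (limma adjusted p = 1.0). The same pool had the lowest summed signal of 8 skeletal muscle markers, 32540 against 43550 to 75540 in the other 4, and whether this has a part in the Col12a1 value was not tested.

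Col16a1 encodes the chain of collagen XVI, a minor FACIT collagen of cartilage and skin. It read 338 and 307 in the wildtype pools and 323, 312 and 386 in the double-null pools, so only double-null pool 3 left the wildtype range. The log2 fold change was 0.099 ± 0.18 with a 95% interval from -0.29 to 0.49, which runs from 0.818-fold to 1.40-fold (limma adjusted p = 0.99).

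Dermatopontin message stood at about 2-fold in the double-null joints, and the pools of each genotype lay close together. Dpt read 644 and 691 in the wildtype pools and 1386, 1482 and 1295 in double-null pools 1 to 3. The gap between the highest wildtype and the lowest double-null pool was wider than the range within either genotype. The means were 667 ± 33.3 (SD, n = 2) and 1388 ± 93.2 (n = 3), and the log2 fold change was 0.998 ± 0.17 (SE), or 1.998-fold. This contrast is what Dpt was picked on, so its values are a description and carry no test. Across the 14 alternatives the change stayed between 0.91 and 1.06.

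Abi3bp also lay higher in the double-null pools, on both of its probe sets, and with a wider spread than Dpt. The brighter probe set read 174 and 251 in the wildtype pools and 674, 482 and 348 in double-null pools 1 to 3. The dimmer one read 92.7 and 135 against 312, 267 and 227. On both, wildtype pool 2 was above wildtype pool 1 and double-null pool 3 was the lowest of its group, and neither overlapped between the genotypes. The log2 fold changes were 1.07 ± 0.25 and 1.08 ± 0.24 (SE), or 2.10-fold and 2.12-fold. Abi3bp was picked on this contrast as well, so these values have no test, and the probe sets read the same RNA and are no replicates of each other. The brighter probe set gave 0.43 with wildtype pool 1 left out, which is the contrast of array type A alone. It gave 1.55 with either array of type A left out, which is the contrast of type B.

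Tnxb, encoding tenascin X, showed the narrowest range of the 8 probe sets. It read 155 and 145.48 in the wildtype pools and 127.98, 144.995 and 143 in the double-null pools. On the deposited scale each double-null pool lay below both wildtype pools (11% of 22626 probe sets did), narrowly at the closest, and after normalisation the groups overlapped. The log2 fold change was -0.059 ± 0.19 with a 95% interval from -0.46 to 0.34, or 0.725-fold to 1.27-fold (limma adjusted p = 0.99).

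Both tables held both genotypes, so the contrast could be read within each. On array type A, with 1 pool a genotype, double-null minus wildtype was 0.91 for Dpt, 0.43 and 0.63 for the brighter and dimmer Abi3bp probe sets, and 0.69 and 0.25 for those of Col14a1. On array type B the same differences were 1.06, 1.55 and 1.42, and 0.997 and 0.43. Dpt, Abi3bp and Col14a1 were higher in the double-null pools on both types, with Abi3bp the most unequal of the 3 in size. Dpt and Abi3bp were picked on these same arrays, so for them the shared sign is a description and no replication. Col12a1 changed sign between types, at 0.60 on A and -0.33 on B, where double-null pool 1 gave 0.54 and double-null pool 2 gave -1.19. Col16a1 changed sign too, at 0.32 and -0.065, and Tnxb was at -0.036 and -0.077. The difference between the types was not tested, and with 1 wildtype pool on each, type and pool cannot be told apart.

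**Figure D2:**
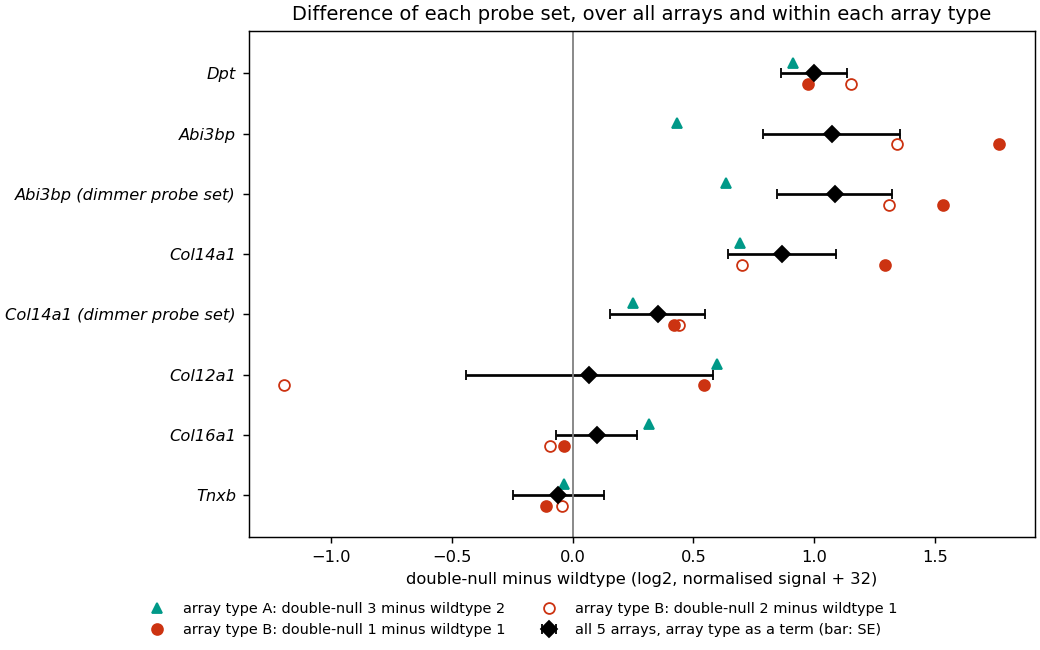
Double-null minus wildtype of each probe set (x axis, log2 of normalised signal + 32). Diamonds give the fit over all 5 arrays and 22626 probe sets with its SE, triangles the difference on array type A, and circles the 2 double-null pools of array type B against their wildtype pool. Dpt lies near 1 in every comparison, Abi3bp spreads from 0.43 to 1.76, and Col12a1 has points on both sides of 0.

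The members' profiles over the arrays were compared by a measure that is not separate from the size of the change. Likeness was measured as the root mean square distance between 2 genes over the 5 arrays, after centring each gene on its mean. Genes were not scaled, so the size of the same contrast enters the distance. Among all 7435 other genes, Col14a1 was the 9th nearest to Abi3bp (distance 0.23) and Dpt the 38th (0.32). From Dpt, Col14a1 was the 83rd nearest (0.28). In the other direction Abi3bp was the 46th nearest to Col14a1 and the 179th nearest to Dpt. Col12a1 was among the most distant genes from Abi3bp, at rank 7250 (0.92), and from Dpt, at rank 7373 (0.87). Since Dpt and Abi3bp were picked on the contrast that shapes their profiles, every distance to them is a description. That holds for their nearness to each other and to Col14a1, and for their distance from Col12a1.

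The genes with the nearest profiles differed by member. For Dpt they were Thbs4, a thrombospondin of tendon (0.082), Npy, encoding neuropeptide Y (0.12), and Fbln7, encoding fibulin 7 (0.14). For Col14a1 they were Spon1, encoding the matrix protein spondin 1 (0.12), Sfrp2, a secreted Wnt modulator (0.14), and Aspn, encoding asporin (0.15). For Abi3bp they were Jchain, the joining chain of immunoglobulins (0.13), Spon1 (0.18) and Gdf10, a ligand of the BMP family (0.19). For Col12a1 they were Deptor, an inhibitor of mTOR (0.21), Pigt, of the GPI anchor transamidase (0.22), and Prkcq, a protein kinase C (0.25). Col16a1 and Tnxb were nearly flat, and their nearest genes were other flat ones: Fam214b, Gimap6 and Mtmr4 for Col16a1 (0.012 to 0.034), and Jagn1, Pex2 and Sdf4 for Tnxb (0.015 to 0.018).

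Other genes of the collagen fibril were set beside the members in 3 lists. The proteins that bind fibrils without being collagens leaned higher in the double-null pools, the remaining FACIT collagens did not, and the fibril-forming collagens were split. Of 15 other fibril-binding genes tested, 14 had positive fold changes (47.9% of all genes did), 8 had the groups apart in that direction (9.45% of all genes), and the median was 0.46 against -0.011 over all genes. In that list 2 rose past the threshold (limma adjusted p = 0.040 for Lum and 0.044 for Fn1, against 0.0807% of all genes higher). Lum, encoding the fibril-binding proteoglycan lumican, was at 1.19 and Fn1, encoding fibronectin, at 0.83. The next by p, Thbs4 at 1.02 and Aspn at 1.06, missed it (limma adjusted p = 0.054 and 0.094). Lum and Fn1 each passed in 4 of 14 alternatives and kept a positive change in all 14. Their adjusted p values (limma) were 0.82 and 0.25 without wildtype pool 1, 0.31 and 0.33 without wildtype pool 2, and 0.30 and 0.32 without double-null pool 3. Thbs4 passed without double-null pool 1 or pool 2 (limma adjusted p = 0.023 and 0.0042), and Aspn without double-null pool 2 (limma adjusted p = 0.00014). In these settings 23 genes (without pool 1) and 50 genes (without pool 2) passed in place of 9. The exception in sign was Tnc, encoding tenascin C, at -0.10.

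Of the 6 other FACIT genes on the array, 3 lay above the intensity filter and 0 passed (limma; 0.121% of all genes did), with 1 at an unadjusted p under 0.05 (6.17%). Col9a1 and Col9a3, chains of the cartilage collagen IX, were at -0.42 and -0.39, and Col22a1, a collagen of tissue junctions, at 0.039. The brighter Col9a1 probe set read 1221 and 917 in the wildtype pools and 859, 869 and 752 in the double-null pools, below both (10.2% of all genes did so). The dimmer one, at -0.41, read 551 and 364 against 322, 310 and 369, so the groups overlapped. The brightest Col9a3 probe set gave 0.60 on array type A and -1.13 on type B. The next brightest was negative on both, at -0.93 and -0.28, with every double-null pool below both wildtype pools.

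Of 9 fibril-forming collagen genes, 4 were above 0 and 5 below it, their median was -0.0020, 4 had the groups apart upward (9.45% of all genes) and 1 rose past the threshold (0.0807%). That was Col3a1, of collagen III, at 1.46 (limma adjusted p = 0.0026). It passed in 8 of 14 alternatives, and not with either wildtype pool left out (limma adjusted p = 0.25 for pool 1 and 0.20 for pool 2) or with double-null pool 3 left out (0.22), with changes from 1.35 to 1.68. Col5a2, Col5a3 and Col5a1, of the fibril-nucleating collagen V, were at 0.54, 0.58 and 0.35 and did not pass (limma adjusted p = 0.30, 0.47 and 0.83), each with its groups apart. For the bulk collagen I of bone and tendon the probe sets disagreed. The brighter ones, among the brightest on the arrays, were at -0.039 for Col1a1 and -0.063 for Col1a2, with overlapping pools. At such ranks quantile normalisation leaves little room for a difference. Deposited signals of the brighter Col1a1 probe set ran from 11160 to 18916, and its normalised log2 values from 13.76 to 13.88. The dimmer Col1a1 probe set was at -0.75 with every double-null pool below both wildtype pools, and the dimmer Col1a2 probe set at 0.24 with the groups apart upward after normalisation; neither passed (limma adjusted p = 0.62 and 0.94 over all probe sets).

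**Figure D3:**
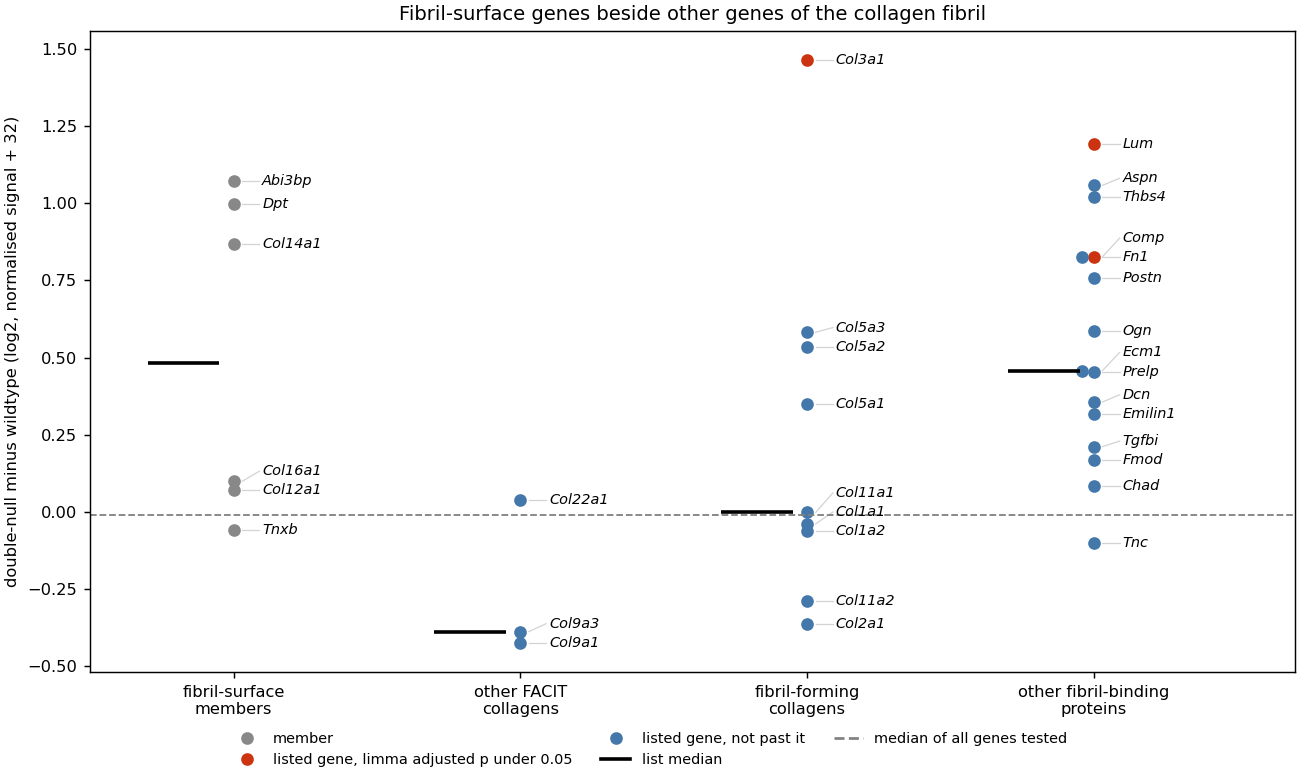
Double-null minus wildtype (y axis, log2 of normalised signal + 32) of the 6 members, in grey, and of the tested genes of 3 lists, in red where the limma adjusted p was under 0.05 and in blue otherwise. Bars are list medians and the dashed line is the median of all 7436 genes; Abi3bp, Dpt and Col14a1 lie between 0.87 and 1.07, apart from Col16a1, Col12a1 and Tnxb.

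Marker genes of connective tissue cells mostly read higher in the double-null pools, as Dpt, Abi3bp and Col14a1 did. Of 10 listed fibroblast genes 9 were on the array and 8 were tested; all 8 had positive values (47.9% of all genes did), with a median of 0.47, and 6 had the groups apart upward (9.45% of all genes). In limma's test 0 passed the threshold (0.121% of all genes), with 4 at an unadjusted p under 0.05 (6.17%). The summed signal of the 9 was 2719 and 2857 in the wildtype pools and 3364 to 3940 in the double-null pools. Among them Pdgfrb, a receptor of mesenchymal cells, was at 0.59, Thy1 at 0.59 and Pdgfra at 0.28. The dimmer probe sets of Pdgfrb and Pdgfra did not share this, at 0.0063 and -0.071 with overlapping pools. Cd34 and Pi16, at 0.12 and 0.092, also had overlapping pools and changed sign between the array types. The 5 tendon genes summed to 1529 and 1633 against 2010 to 2365, with a median of 0.60 over the 4 tested. Thbs4 and Tnmd, encoding tenomodulin, were at 1.02 and 1.03, and Egr1 was at 0.18 with overlapping pools. Fmod, encoding fibromodulin, differed by probe set: the one with the highest mean log2 level was at 0.17 with overlapping pools, while 4 of its 6 probe sets had the groups apart upward, at 0.835 to 1.147, and did not pass over all probe sets (limma adjusted p from 0.23 to 0.35). Scx, the tendon transcription factor scleraxis, was dim, at 3.86 to 44.6. Thbs4 and Fmod are also in the list of other fibril-binding proteins, so the tendon list is not separate from it. The part of these markers in the values of Dpt, Abi3bp and Col14a1 was not tested. In RNA from a whole joint, more cells of a type and more message per cell cannot be told apart.

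For the other tissues, summed signals overlapped between groups for cartilage (6154 and 13670 against 6993 to 8059), bone (3928 and 4463 against 3918 to 4620), and skeletal muscle (53050 and 61690 against 32540 to 75540). They overlapped as well for fat, erythroid, neutrophil, endothelial and skin lists, of which the skin list was mostly dim, with 1 of 5 genes above the filter. The cartilage sum is mostly Col2a1, encoding collagen II. Gene by gene the list leaned lower: 5 of 6 tested genes were negative, with a median of -0.24. Cnmd, encoding chondromodulin, and the brighter Col9a1 probe set had every double-null pool below both wildtype pools (10.2% of all genes). The dimmer Col9a1 probe set overlapped. Col9a1 and Cnmd had an unadjusted p under 0.05 and neither passed (limma adjusted p = 0.74 and 0.78). The mean log2 level of the neutrophil list was also lower in each double-null pool, but narrowly, at 13.55 to 13.59 against 13.61 and 13.67. Of its 7 genes, 1 had an unadjusted p under 0.05 in limma (6.17% of all genes did), Elane at -0.32. S100a8, S100a9 and Ngp, among the brightest on the arrays, were at 0.0048, -0.0048 and -0.0061. Quantile normalisation gives the top ranks nearly the same value on every array, so these 3 values could hardly differ from 0. The deposited S100a8 signal ran from 15422 to 25761, with overlapping groups. Whether the cartilage or neutrophil markers have a part in the members' values was not tested.

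**Figure D4:**
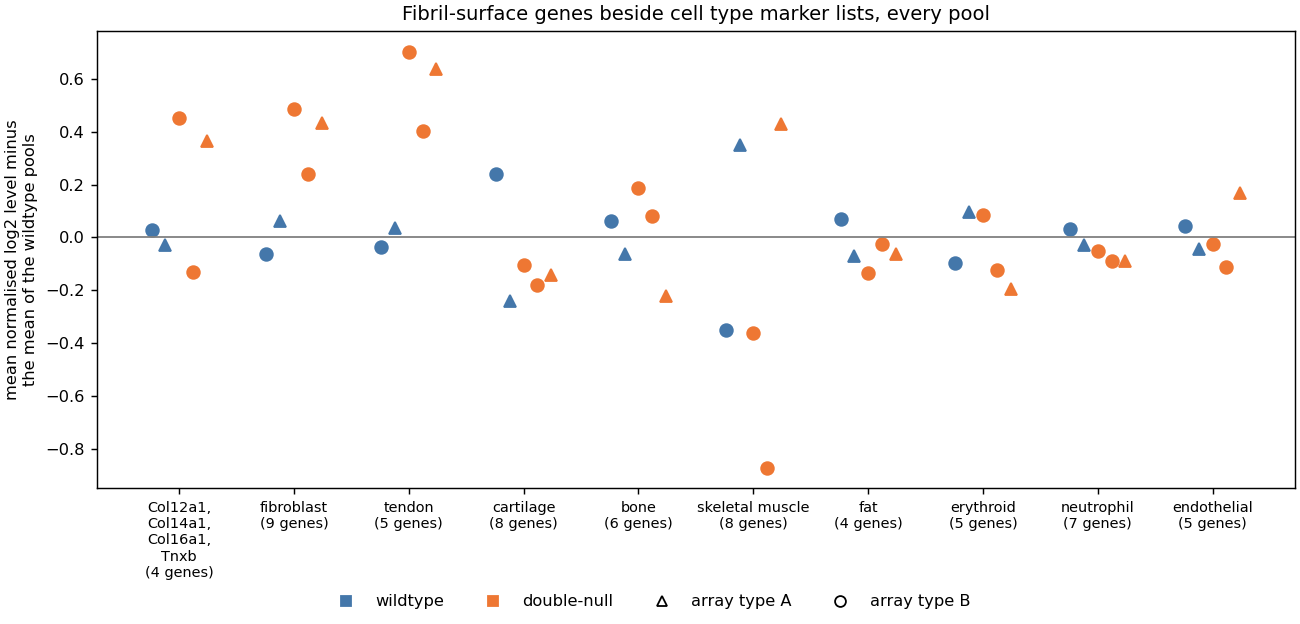
Mean normalised log2 level of the 4 fibril-surface genes not picked by their values and of 9 cell type marker lists in each pool, minus the mean of the wildtype pools (y axis), with colours and shapes for genotype and array type. The fibroblast and tendon lists lie above both wildtype pools in all 3 double-null pools, the 4 genes do so in double-null pools 1 and 3 only, and skeletal muscle is lowest in double-null pool 2.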

How the data were processed

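Per the labels' protocols, RNA was extracted with Trizol and silica columns, copied into biotin-labelled RNA and put on Affymetrix arrays. The authors deposited linear intensities for each probe set, from MAS5 per the submitters' processing notes; the sources used here name neither version nor scaling target. The log2(signal + 32) values were quantile normalised. The probe set with the highest mean of these values stood for its gene, and the 7436 genes above the 40th percentile of mean level (a signal near 98.5) were tested, which all 6 members passed. Groups were tested with limma 3.58.1 under R 4.3.3 (eBayes with intensity trend, two-sided, Benjamini-Hochberg, threshold 0.05), with array type as a term; dimmer probe sets were read from the same fit over 22626 probe sets without the filter. The fit was tested on simulated data.

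Of all probe sets, 20380 other than controls had 1 gene symbol, and 20351 of these took their current symbol from the GRCm38.p6 table by Entrez number. Members, lists and tests were chosen with earlier results of these data known, and the promoter motifs after the sequences were read. Named genes were the members, up to 4 per fibril list with the smallest p, the 3 nearest profiles per member, and Epyc and Bgn; other list genes were named after their values were seen. Alternatives were other scalings and pseudocounts, no filter, no array-type term, array type B alone, a replicate block, the mean over probe sets, and each array left out. Replicates are separate pools of animals.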

Additional observations from a re-analysis of the deposited data

How the results depend on the processing

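Across 14 alternatives Dpt, Abi3bp and Col14a1 kept a positive change and Tnxb a negative one. Dpt and Abi3bp were picked on this contrast, so their kept sign is no sign of stability. Leaving out the filter moves no member's fold change, so that setting is no check of sign. The median change of all 6 members ran from 0.35 to 0.76 (0.40 to 0.76 without single pools). It includes Dpt and Abi3bp, so its sign is no sign of stability either. Over the 4 others the median had no stable sign: it was 0.084, against -0.071 on array type B alone, -0.017 with the replicate block, and -0.071 to 0.46 without single pools. Col12a1 and Col16a1 had no stable sign. Col12a1 was at -0.024 with no array-type term, -0.34 with the replicate block and -0.33 on array type B alone, and ran from -0.33 to 0.60 without single pools. Col16a1 was at -0.065 on array type B alone and ran from -0.065 to 0.32 without single pools. Abi3bp ran from 0.43 to 1.55. Of the other named fibril genes, Col9a3 ran from -1.13 to 0.60 without single pools (0.60 without wildtype pool 1), and Col22a1, near 0 throughout, was at -0.026 with no array-type term, -0.15 with the replicate block, -0.052 with the mean over probe sets and -0.064 to 0.14 without single pools. The number of genes past the threshold, 9, was 5 with the scaling as deposited, 2 without the filter, where more genes are tested, 2 with type B alone, 4 with no array-type term, and 2 to 50 without single pools (50 without double-null pool 2, 23 without double-null pool 1, 3 without wildtype pool 1, 2 without wildtype pool 2 or double-null pool 3). Leaving out the filter also changed standard errors, for Col3a1 from 0.16 to 0.20 at the same fold change. The causes of these shifts in number were not tested. Dropping either array of type A leaves the contrast of type B, since the other array of type A is then fitted exactly, so these are not separate checks. Dropping wildtype pool 1 likewise leaves the contrast of array type A alone.

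The labels share replicate numbers 1 and 2 between groups, with no stated pairing; same-numbered pools had deviations correlated at 0.0048 and -0.18 across genes. With a replicate block in place of the array-type term, 0 genes passed (limma, 484 at an unadjusted p under 0.05), and Dpt was at 1.01, Abi3bp at 1.32 and Col14a1 at 1.02.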
